A study of Mus musculus with 21 samples.

Results

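RNA was compared between 3 day 14 and 3 day 0 libraries of mouse mammary organoids that carry the ATLD1 allele of Mre11 (ATLD organoids). These 6 libraries were taken by their labels from the 21 of the series, and all genes of the count table were described. The organoids were grown from primary mammary epithelial cells and are Mre11ATLD1/ATLD1. Days count the time after activation of neuT, the rat Erbb2 oncogene, which encodes a receptor tyrosine kinase with a mutation that keeps it active. Day 0 is the starting point of that course. The labels name neither the promoter that drives neuT nor the agent that activates it, and no culture kept for 14 days without neuT was analysed here, so that neuT and time in culture cannot be told apart. They also do not say whether the 3 replicates of a day came from separate animals, and p-values then measure only the spread between these libraries, which may be technical. The other groups used below are ATLD organoids at day 28 and wild-type (WT) organoids at day 0 and day 14 of neuT, with 3 libraries each.

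Together with Rad50 and Nbs1, the nuclease Mre11 forms a complex that senses broken DNA ends, trims them and switches on the checkpoint kinase ATM. The ATLD1 allele is named after ataxia-telangiectasia-like disorder, which comes with partial loss of this complex. Oncogenes such as neuT drive cells into S phase, and replication under such drive can break DNA. Cells answer with checkpoint arrest through p53 and its target Cdkn1a, with senescence and its secretion of cytokines and proteases, and, where DNA reaches the cytosol, with transcription of interferon-stimulated genes. The mammary epithelium itself holds luminal cells, which make milk proteins, and basal cells, which are contractile and carry Krt5, Krt14 and Acta2.

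The 6 libraries held 47221557 to 50590974 counts, with 2.53% to 3.43% of the counts on mitochondrial transcripts. Levels below are CPM, the counts scaled to 1 common library size with TMM factors, given for replicates 1, 2 and 3 in that order. A change is the log2 ratio of day 14 to day 0 with its standard error (SE). A gene was called, and is said to have risen or fallen, at a Benjamini-Hochberg adjusted p under 0.05 in edgeR's quasi-likelihood test over 18684 genes. The gene with the ATLD1 allele, Mre11a in the count table (ENSMUSG00000031928, mm10 chromosome 9, 14784654 to 14837123), was at 14.9, 13.9 and 15.3 CPM at day 0 and 15.7, 16.9 and 14.7 CPM at day 14, a change of 0.10 ± 0.10, adjusted p = 0.66. The groups of libraries overlapped. Erbb2 (ENSMUSG00000062312, mm10 chromosome 11, 98412470 to 98437716) was at 113, 82.4 and 75.6 CPM and 86.8, 79.05 and 75.4 CPM, a change of -0.17 ± 0.26, adjusted p = 0.787, and neuT reads may be counted there, since the rat and mouse genes are alike. The 12 pan-epithelial markers summed to 7579 to 7974 CPM at day 0 and 6258 to 7370 CPM at day 14, and none of them was called, against 11.7% of all genes. At an unadjusted p under 0.05 1 of the 12 passed, DESeq2 called 1 higher, and the fit of the 9 ATLD libraries alone called 2 lower.

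Between day 0 and day 14, 968 genes rose and 1212 fell, 5.18% and 6.49% of the genes tested. Of these 2180, 406 rose and 411 fell by at least 2-fold. The median change of all genes tested was -0.03. Of the lists described below, those of mitosis, DNA replication and homologous recombination held the largest shares of members that fell, and interferon-stimulated genes rose in 21 of 47 cases. Groups of 3 libraries did not overlap for 2146 of the 2180 called genes and for 27.5% of all genes tested. Of the genes that rose 89.4% were protein-coding, and of those that fell 93.1%, against 76.2% of the genes tested. The fallen genes had a median span of 27500 bases on the chromosome, the risen ones 22280 and the tested ones 16480. The spread in this test was shared with the WT libraries. Against the mean of the ATLD libraries, some WT libraries carry a trend with the GC content of genes. The 9 ATLD libraries alone gave 2254 calls.

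**Figure D1:**
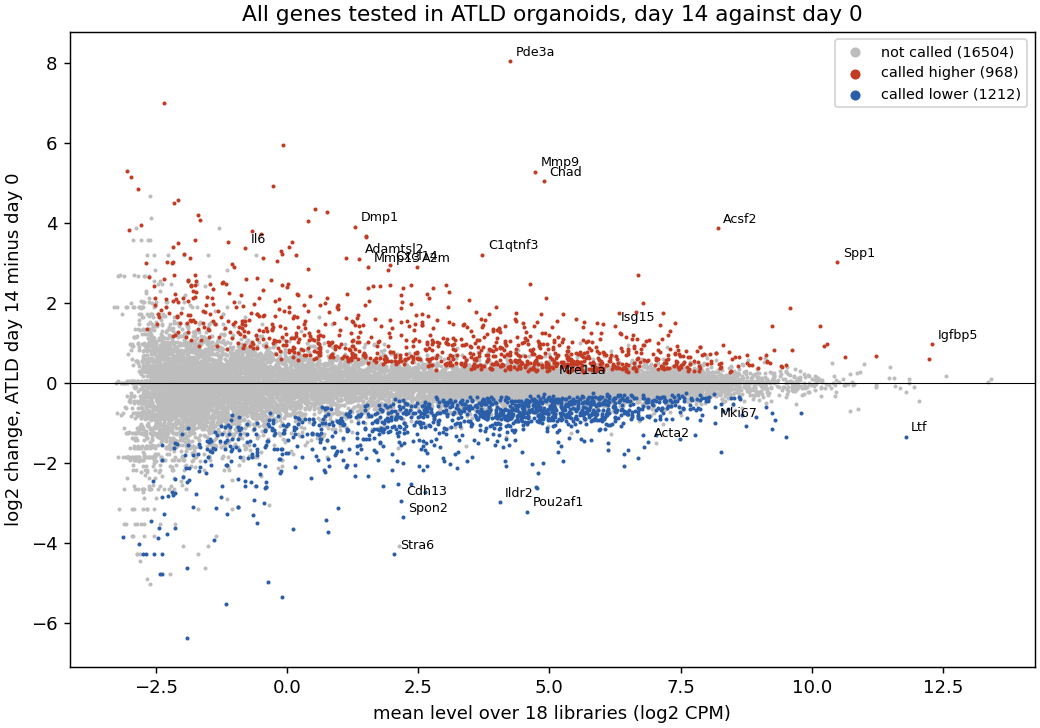
Log2 change from day 0 to day 14 in ATLD organoids (y axis) against the mean level over 18 libraries in log2 CPM (x axis), 1 point for each of the 18684 genes tested. Red points are the 968 genes that rose, blue points the 1212 that fell and grey points the genes not called. Pde3a and Mmp9 lie highest among the labelled genes, and Stra6 lowest.

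The largest rise under the rule for named genes was that of Pde3a, a phosphodiesterase that breaks down cyclic AMP and cyclic GMP (ENSMUSG00000041741, mm10 chromosome 6, 141249269 to 141507448). It had 2 counts over the day 0 libraries and 603 over those of day 14, or 4.44, 4.96 and 4.26 CPM. The ratio was 313, with an exact 95% interval of 86.3 to 2590 that covers counting error only, and the fitted change of 8.04 ± 0.35 depends on the prior count. Mmp9, a gelatinase that degrades basement membrane collagen (ENSMUSG00000017737, mm10 chromosome 2, 164940780 to 164955850), went from 2.39, 0.939 and 0.785 CPM to 55.8, 54.9 and 50.1 CPM, a change of 5.28 ± 0.44, adjusted p = 5.51e-07. All 3 day 14 libraries were far above all 3 day 0 libraries. Chad, a matrix protein of cartilage, went from 1.39, 1.66 and 1.53 CPM to 43.8, 62.4 and 43.7 CPM (5.03 ± 0.31). Acsf2, a mitochondrial acyl-CoA synthetase, had the highest day 0 level of these 4 genes after scaling to gene length, 10.3 RPKM, which scales CPM to the length of the gene in kilobases, and reached 149 RPKM. Its CPM values were 31.96, 33.4 and 40.6 at day 0 and 425, 599 and 513 at day 14, a change of 3.86 ± 0.18, adjusted p = 1.59e-09. Spp1, the secreted matrix phosphoprotein osteopontin (ENSMUSG00000029304, mm10 chromosome 5, 104435118 to 104441050), went from 205, 181 and 229.8 CPM to 1406, 1748 and 1825 CPM (3.02 ± 0.15, adjusted p = 1.88e-09).

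The other large rises started from low levels. Dmp1, a phosphoprotein of bone and dentine, changed by 3.90 ± 0.31, Adamtsl2, a protein of the fibrillin matrix, by 3.10 ± 0.27, and A2m, a broad protease inhibitor of plasma, by 2.90 ± 0.22. Cxcl14, a chemokine of epithelia, was at 1.30, 1.10 and 1.18 CPM at day 0 and 9.56, 8.69 and 9.40 CPM at day 14 (2.95 ± 0.18, adjusted p = 2.07e-08). Mmp13, a collagenase, changed by 2.90 ± 0.29. C1qtnf3 (3.21 ± 0.22), Megf10 (2.71 ± 0.29), a receptor for engulfment of dying cells, and Olr1 (2.45 ± 0.20), a scavenger receptor for oxidised lipoprotein, rose too. Smoc1, a secreted calcium-binding matrix protein, went from 15.3, 12.1 and 12.4 CPM to 68.1, 84.3 and 68.9 CPM (2.47 ± 0.15). Ckb, the brain form of creatine kinase, changed by 2.46 ± 0.43. The 15 largest rises and the 15 largest falls were picked among called genes whose day 14 and day 0 libraries do not overlap. The lack of overlap in these genes, Mmp9 included, thus follows from the rule.

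Except for Il17rb, the 15 largest falls were of genes below 13 CPM at day 0. Stra6, the membrane receptor that takes up retinol from its carrier (ENSMUSG00000032327, mm10 chromosome 9, 58063788 to 58153996), went from 8.24, 6.13 and 6.85 CPM to 0.220, 0.559 and 0.309 CPM, a change of -4.28 ± 0.49, adjusted p = 1.48e-05. Aldh1a1, an aldehyde dehydrogenase that makes retinoic acid, changed by -2.62 ± 0.19, and Adh7, an alcohol dehydrogenase, by -2.32 ± 0.21. Pou2af1, a transcriptional coactivator of POU factors, went from 9.71, 8.36 and 9.23 CPM to 0.923, 0.827 and 1.19 CPM (-3.21 ± 0.18, adjusted p = 1.35e-08), and the POU factor Pou2f3, at 0.335 to 0.491 CPM at day 0, changed by -2.56 ± 0.28. Il17rb, a receptor subunit for interleukin 25, went from 18.5, 16.9 and 17.8 CPM to 3.54, 2.66 and 2.57 CPM (-2.60 ± 0.14, adjusted p = 7.21e-09). Bhlha15, a transcription factor of secretory cells, changed by -2.32 ± 0.21. Spon2 (-3.35 ± 0.33), Ildr2 (-2.97 ± 0.30), the cadherin Cdh13 (-2.94 ± 0.27), the kallikrein Klk10 (-2.52 ± 0.27), Phyhip (-2.52 ± 0.27) and the uroplakin Upk3a (-2.25 ± 0.40) fell too. Capn8, a calpain, had 20 counts over day 0 and 4 over day 14, a ratio of 0.208 with an exact 95% interval of 0.0516 to 0.62, and its call was lost without day 0 replicate 3 or day 14 replicate 2 or 3 (adjusted p = 0.0551 to 0.0631).

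**Figure D2:**
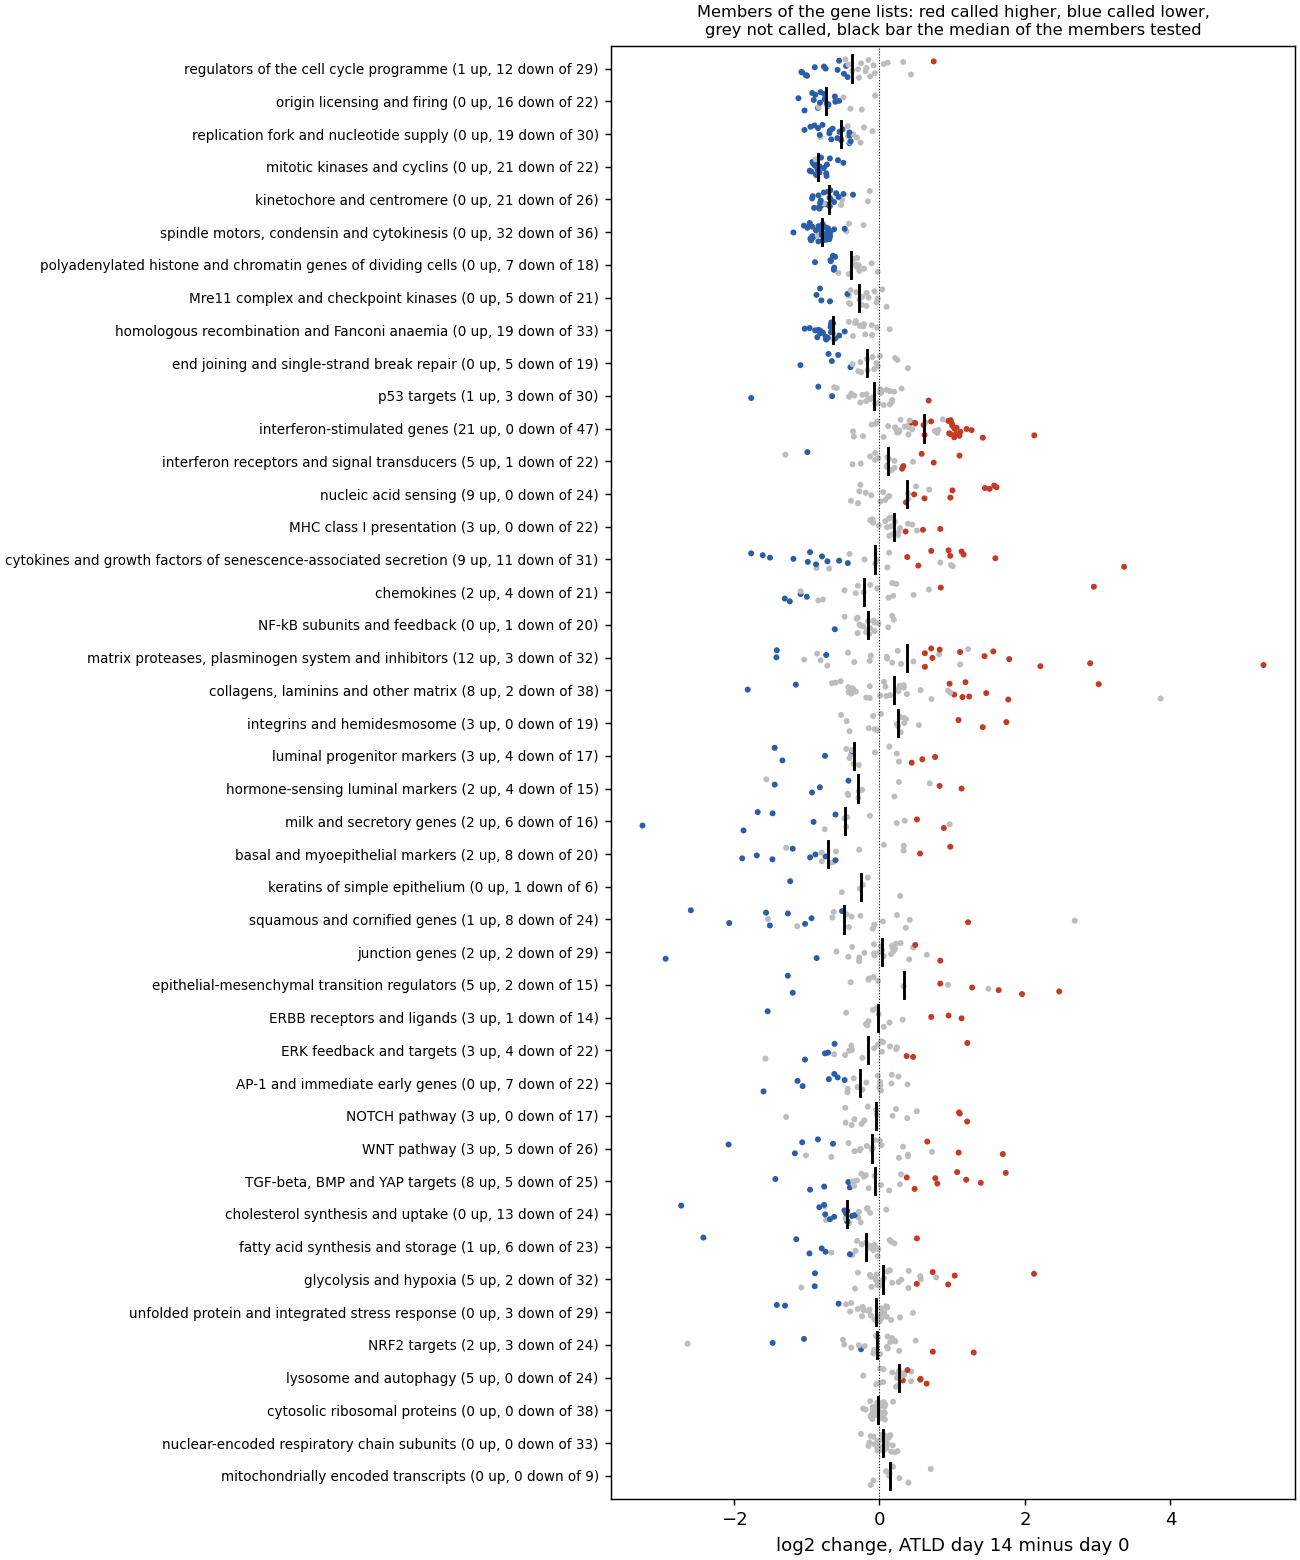
Log2 change from day 0 to day 14 (x axis) of the members of each gene list (rows), with the number called higher and lower of the members tested. Red points rose, blue points fell, grey points were not called, and the black bar is the median of the members tested. The lists of cell division lie left of 0 and the interferon-stimulated genes mostly right of it.

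Genes of cell division fell together. Of 22 mitotic kinases and cyclins 21 fell, with a median change of -0.84, of 36 spindle motor, condensin and cytokinesis genes 32 fell (median -0.79), and of 26 kinetochore and centromere genes 21 fell (median -0.70). None of the members of these lists rose. Over all genes tested 6.49% fell, and the median was -0.03. Mki67, a marker of cycling cells (ENSMUSG00000031004, mm10 chromosome 7, 135689784 to 135716361), was at 446, 330.5 and 380 CPM at day 0 and 228, 201 and 153 CPM at day 14 (-0.99 ± 0.17, adjusted p = 8.32e-04). Foxm1, the transcription factor of G2 and mitosis genes, went from 52.2, 39.8 and 39.9 CPM to 22.6, 19.9 and 20.2 CPM (-1.07 ± 0.18, adjusted p = 4.70e-04). Cdc20, which activates the anaphase promoting complex (ENSMUSG00000006398, mm10 chromosome 4, 118432901 to 118437352), went from 121, 129 and 137 CPM to 61.7, 69.6 and 67.97 CPM (-0.96 ± 0.18, adjusted p = 0.00123). In all 3 genes the day 14 libraries lay below every day 0 library. The kinases Nek2 (-0.89 ± 0.11), Plk4 (-0.96 ± 0.15), which starts centriole duplication, and Haspin (-0.91 ± 0.13), the phosphatase Cdc25b (-0.92 ± 0.13), the kinetochore proteins Nuf2 (-0.93 ± 0.13), Knl1 (-0.92 ± 0.20) and Cenpe (-0.90 ± 0.17), and the spindle pole protein Aspm (-0.96 ± 0.16) changed by similar amounts.

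Genes that copy DNA fell as well. Of 22 genes of origin licensing and firing 16 fell (median -0.74), and of 30 genes of the replication fork and nucleotide supply 19 fell (median -0.53), with none higher in either list. Without day 14 replicate 1 the second count was 12. Gins1, a subunit of the replicative helicase, went from 13.7, 16.4 and 15.5 CPM to 7.21, 6.79 and 7.07 CPM (-1.11 ± 0.13, adjusted p = 2.49e-05). Orc1, the largest subunit of the origin recognition complex (ENSMUSG00000028587, mm10 chromosome 4, 108579423 to 108614833), went from 9.31, 9.26 and 10.9 CPM to 4.42, 5.54 and 4.47 CPM (-1.03 ± 0.14, adjusted p = 1.03e-04). Rrm2, the ribonucleotide reductase subunit that limits nucleotide supply, went from 95.6, 103 and 124 CPM to 50.96, 54.1 and 52.6 CPM (-1.03 ± 0.12, adjusted p = 2.02e-05). The replication factors Mcm10 (-0.90 ± 0.12), Ticrr (-0.92 ± 0.15) and the kinase Cdc7 (-0.88 ± 0.13), the chromatin assembly subunit Chaf1a (-0.89 ± 0.19), thymidine kinase Tk1 (-0.84 ± 0.20) and the polymerase Pole (-0.82 ± 0.14) fell too. Lmnb1, a nuclear lamina protein whose loss marks senescent cells, went from 164, 144 and 176 CPM to 101, 115 and 98.7 CPM (-0.62 ± 0.11, adjusted p = 0.001).

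Of 29 regulators of the cell cycle programme 12 fell and 1 rose (median -0.38). The repressors E2f8 (-1.01 ± 0.13) and E2f7 (-0.996 ± 0.14), the activator Mybl2 (-1.06 ± 0.21) and cyclin E1, Ccne1 (-0.89 ± 0.11), were among the falls. E2f1, at 38.3, 36.7 and 39.5 CPM and 28.7, 33.8 and 31.7 CPM, did not pass the test (-0.28 ± 0.17, adjusted p = 0.369), although the libraries of the 2 days did not overlap. The member that rose was Cdkn2b, the CDK4 and CDK6 inhibitor p15, from 29.04, 27.4 and 21.6 CPM to 41.5, 40.8 and 48.5 CPM (0.75 ± 0.12, adjusted p = 5.57e-04). Its neighbour Cdkn2a, the gene of p16 and p19ARF, was at 36.3, 42.95 and 30.5 CPM and 35.9, 46.1 and 55.5 CPM and was not called (0.33 ± 0.41, adjusted p = 0.725). Of 18 histone variants and chromatin genes of dividing cells 7 fell, among them the helicase Hells (-0.89 ± 0.15), Stmn1 (-0.64 ± 0.12) and Hmgb2 (-0.63 ± 0.13), or 11 with an offset for the GC content of genes, called a GC offset below.

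The promoters of these genes were searched for the letters of the elements that are known to control them. The cell cycle homology region, TTTGAA, is the element of many G2 and mitosis genes, and E2F factors bind sites such as TTTCGCGC, TTTGGCGC or TTTCCCGC. Windows ran from 250 bases before to 50 after the RefSeq start, both strands were read, and the elements were chosen with the values known. TTTGAA stood in 45 of 72 genes of the mitosis lists with a window (62.5%), against 14.9% of 12278 tested genes with one. The E2F letters stood in 17 of 43 genes of the replication lists (39.5%), against 3.75% of tested genes and 12.5% of the mitosis genes. CCAAT stood in 73.6% of the mitosis genes and 42.4% of tested genes. Shown are the 150 bases before the start of Mki67, Cdc20 and Orc1, 5′ to 3′ on the strand of the gene, from RefSeq on GRCm38.p6, with the letters that match in capitals. They were picked from 29 candidates for these and the elements below, 24 with a window, since only 6 held the letters within these 150 bases. The windows lie at chr7:135716380-135716529 on the minus strand for Mki67, chr4:118437344-118437493 on the minus strand for Cdc20 and chr4:108579304-108579453 on the plus strand for Orc1. They are set by the RefSeq starts, which differ from the gene positions given above. The windows of Cdc20 and Orc1 thus reach into the gene as placed above, and the match in Orc1 lies in that part.
Mki67: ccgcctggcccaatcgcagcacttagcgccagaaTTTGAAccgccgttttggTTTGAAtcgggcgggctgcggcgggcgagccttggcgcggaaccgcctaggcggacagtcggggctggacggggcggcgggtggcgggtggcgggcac
Cdc20: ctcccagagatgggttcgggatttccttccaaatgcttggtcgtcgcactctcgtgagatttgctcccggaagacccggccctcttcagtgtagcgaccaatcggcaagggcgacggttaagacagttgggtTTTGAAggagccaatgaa
Orc1: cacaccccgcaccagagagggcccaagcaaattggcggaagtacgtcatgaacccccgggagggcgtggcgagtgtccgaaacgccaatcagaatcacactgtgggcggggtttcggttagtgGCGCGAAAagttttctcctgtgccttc
Mki67 holds TTTGAA in 2 places and Cdc20 in 1. In Orc1 the capitals are the reverse complement of TTTCGCGC. A match is a description of letters and shows no binding.

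Recombination genes fell. Of 33 genes of homologous recombination and the Fanconi pathway 19 fell (median -0.63) and none rose. Fanca, a subunit of the Fanconi core complex (ENSMUSG00000032815, mm10 chromosome 8, 123268300 to 123318576), went from 25.4, 24.2 and 28.4 CPM to 11.96, 15.1 and 11.2 CPM (-1.03 ± 0.18, adjusted p = 7.79e-04). Fancb of the same complex (-0.96 ± 0.12), the nuclease-helicase Dna2 (-0.89 ± 0.14) and the nuclease subunit Eme1 (-0.84 ± 0.14) fell too. Of 21 genes of the Mre11 complex and the checkpoint kinases 5 fell (23.8% called, against 11.7% of all genes). This count was 3 without day 14 replicate 1 or 3 and 9 with a GC offset. Chek2 went from 43.8, 50.96 and 57.9 CPM to 29.9, 27.00 and 30.7 CPM (-0.80 ± 0.11, adjusted p = 8.13e-05), and Chek1 (-0.68 ± 0.15) and its adaptor Clspn (-0.82 ± 0.13) fell as well. Of 19 genes of end joining and single-strand break repair 5 fell (26.3% called, against 11.7% of all genes). Among them were the DNA ligase Lig3 (-0.66 ± 0.08) and the glycosylases Neil3 (-0.70 ± 0.13) and Ung (-0.57 ± 0.14).

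Calls among p53 targets were about as frequent as among all genes. Of 30 tested, 3 fell and 1 rose, which is 13.3% against 11.7% of all genes, or 7 and 2 with a GC offset, and the median change was -0.08. Cdkn1a, the CDK inhibitor p21 (ENSMUSG00000023067, mm10 chromosome 17, 29090976 to 29100727), was at 140.4, 135 and 151 CPM at day 0 and 148, 148 and 148 CPM at day 14, a change of 0.06 ± 0.11, adjusted p = 0.836. The day 14 libraries all lay within the range of day 0. Trp53 was at 178, 196 and 232 CPM and 172, 220.1 and 200 CPM (-0.03 ± 0.16, adjusted p = 0.944). Fas, a death receptor, rose from 23.7, 31.3 and 26.4 CPM to 43.95, 41.99 and 44.1 CPM (0.68 ± 0.14, adjusted p = 0.00241), while the antiproliferative gene Btg2 went from 159.5, 190.4 and 194 CPM to 117, 113 and 116 CPM (-0.65 ± 0.11, adjusted p = 4.05e-04). Gdf15, a stress cytokine, fell from a low level (-1.76 ± 0.37).

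Interferon-stimulated genes rose. Of 47 tested, 21 rose and none fell, with a median change of 0.61, while 5.18% of all genes rose. Leaving out single ATLD libraries gave 14 to 25. Isg15, a ubiquitin-like modifier (ENSMUSG00000035692, mm10 chromosome 4, 156199424 to 156200818), was at 85.1, 77.7 and 61.7 CPM at day 0 and 139.7, 206 and 255 CPM at day 14 (1.42 ± 0.27, adjusted p = 0.00179). The day 14 libraries all lay above day 0 and differed among themselves, with replicate 1 the lowest. Usp18, the protease that removes Isg15 from proteins, was again lowest in replicate 1 of day 14, and went from 29.8, 23.1 and 23.5 CPM to 42.8, 70.1 and 70.8 CPM (1.27 ± 0.27, adjusted p = 0.00406). Rtp4 went from 109, 97.9 and 92.7 CPM to 205, 227 and 256 CPM (1.197 ± 0.20, adjusted p = 5.87e-04), Oasl2 from 113, 73.96 and 93.2 CPM to 162, 239.5 and 204 CPM (1.11 ± 0.23, adjusted p = 0.00362), and Ifi27l2a, whose reads may be shared with its close copies, changed by 2.13 ± 0.38.

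Interferon signalling genes moved less uniformly. Of 22 receptors and signal transducers 5 rose and 1 fell, and without day 14 replicate 2 only 2 rose. Irf9, a DNA-binding factor of the interferon response, went from 117, 106 and 111 CPM to 149, 178 and 172 CPM (0.58 ± 0.10, adjusted p = 5.69e-04). Irf7, which drives interferon genes, went from 139.5, 106 and 101 CPM to 172, 302 and 269.8 CPM (1.10 ± 0.27, adjusted p = 0.00999), and the call was lost without day 14 replicate 2 (adjusted p = 0.0583) or day 0 replicate 3 (0.0511). Socs3, a feedback inhibitor of cytokine receptors, fell from 77.2, 67.97 and 65.5 CPM to 35.6, 35.8 and 34.7 CPM (-0.99 ± 0.18, adjusted p = 0.00102). The interferon genes Ifnb1, Ifnk, Ifnl2 and Ifnl3 had too few counts to be tested.

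Of 24 genes of nucleic acid sensing 9 rose and none fell (median 0.38). The Ifi200 genes of DNA sensing Ifi205 (1.61 ± 0.24), Ifi211 (1.58 ± 0.17), Ifi203 (1.51 ± 0.25) and Ifi204 (1.45 ± 0.20) are near copies of each other, so that their reads may be split. Zbp1, a sensor of Z-form nucleic acid, went from 28.6, 25.2 and 23.5 CPM to 38.6, 54.8 and 61.7 CPM (1.003 ± 0.18, adjusted p = 0.00124). Of 22 genes of MHC class I presentation 3 rose (13.6% called, against 11.7% of all genes), or 6 with a GC offset. B2m, the light chain of class I molecules, went from 802, 931 and 1047 CPM to 1412, 1949 and 1600 CPM (0.84 ± 0.15, adjusted p = 0.00122). The myeloid markers summed to 3.07 to 3.55 CPM at day 0 and 2.97 to 3.42 CPM at day 14, and the lymphocyte markers to at most 0.405 CPM in any of the 6 libraries. Of 12 myeloid markers 7 were at 0 in all 6 libraries, Ptprc, the pan-leukocyte gene, among them.

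The core of the interferon-stimulated response element, GAAANNGAA, stood in 22 of 36 interferon-stimulated genes with a promoter window (61.1%), against 8.54% of tested genes. In the 150 bases before the start of Isg15, at chr4:156200819-156200968 of GRCm38.p6 on the minus strand, 3 overlapping matches run together into 1 stretch of capitals, the nearest starting 66 bases before the gene. The sequence is RefSeq's, chosen from the same 29 candidates.
Isg15: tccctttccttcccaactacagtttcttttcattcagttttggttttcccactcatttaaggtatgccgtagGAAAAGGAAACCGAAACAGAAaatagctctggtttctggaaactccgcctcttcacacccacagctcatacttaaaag

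Secreted factors of the senescence list changed in both directions. Of 31 cytokines and growth factors 9 rose and 11 fell, and the falls were 7 without day 0 replicate 1, day 14 replicate 1 or day 14 replicate 2. This is 64.5% called, against 11.7% of all genes, with a median change of -0.06. The falls included Gdf15 (-1.76) and Tgfb2 (below). Il6, an inflammatory cytokine, was at 0.256, 0.179 and 0.218 CPM at day 0 and 2.09, 2.32 and 2.40 CPM at day 14, a change of 3.36 ± 0.28, adjusted p = 6.57e-07 at a low level throughout. Igfbp5, which binds insulin-like growth factors and is abundant here (ENSMUSG00000026185, mm10 chromosome 1, 72857932 to 72874884), went from 3614, 2713 and 2260 CPM to 6400, 5012 and 5449 CPM (0.97 ± 0.19, adjusted p = 0.00207). Igfbp7 (1.16 ± 0.11), Fgf2 (1.59 ± 0.15), Il15 (0.53 ± 0.12) and the EGF receptor ligands Areg (1.13 ± 0.13) and Hbegf (0.95 ± 0.10) rose. Il1a, the apical cytokine of the senescent secretion, was at 0.342, 0.313 and 0.196 CPM and 0.0659, 0.179 and 0.286 CPM and was not called (-0.69 ± 0.48, adjusted p = 0.452).

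Chemokines changed in both directions. Of 21 tested, 4 fell and 2 rose. Ccl2, which attracts monocytes, went from 11.6, 16.1 and 13.1 CPM to 4.75, 5.54 and 7.07 CPM (-1.23 ± 0.16, adjusted p = 6.84e-05), and Ccl9 (-1.30 ± 0.21), Ccl28 (-1.08 ± 0.18) and Ccl20 (-0.999 ± 0.18) fell too. Cxcl14 (above) and Cxcl12, from 12.9, 15.5 and 15.03 CPM to 28.8, 24.5 and 24.6 CPM (0.84 ± 0.11, adjusted p = 7.42e-05), rose. Cxcl1, a neutrophil attractant, was at 155, 208 and 155 CPM and 116, 134 and 162 CPM and was not called (-0.33 ± 0.13, adjusted p = 0.142) unless day 14 replicate 3 was left out (adjusted p = 0.0441). Of 20 NF-kB subunits and feedback genes 1 was called, Nfkbia, the inhibitor that NF-kB itself induces, which fell from 357, 394 and 351 CPM to 216, 249.9 and 254 CPM (-0.61 ± 0.13, adjusted p = 0.00385). This is 5.0%, against 11.7% of all genes. Without day 0 replicate 3 there were 2 falls, and with a GC offset 4 falls and 1 rise.

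More matrix proteases and their inhibitors rose than fell. Of 32 tested 12 rose and 3 fell (median 0.38), and without day 0 replicate 1 the falls were 1. Timp1, an inhibitor of metalloproteases (ENSMUSG00000001131, mm10 chromosome X, 20870166 to 20874735), went from 65.2, 63.01 and 68.7 CPM to 215, 224 and 239 CPM (1.78 ± 0.11, adjusted p = 1.95e-08), with narrow groups on both days. The metalloprotease Mmp3 (2.21 ± 0.33) rose from a low level. Adam8 fell from 4.01, 3.17 and 3.58 CPM to 1.39, 1.54 and 1.09 CPM (-1.42 ± 0.27, adjusted p = 0.0016). Of 38 matrix genes 8 rose and 2 fell, and the rises were 4 without day 0 replicate 2 or 3 and 5 without day 14 replicate 1. Besides Spp1 they held Col1a1 (1.77 ± 0.38), which stayed below 2.9 CPM. Thbs1, an anti-angiogenic matrix protein, fell from 922, 627 and 471 CPM to 416, 238 and 256 CPM (-1.15 ± 0.26, adjusted p = 0.00604).

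Of 19 integrin and hemidesmosome genes 3 rose (15.8% called, against 11.7% of all genes), or 6 without day 0 replicate 1. Itgb3, the beta chain of receptors for osteopontin and vitronectin (ENSMUSG00000020689, mm10 chromosome 11, 104608000 to 104670476), went from 48.1, 39.8 and 38.1 CPM to 154, 139.5 and 128 CPM (1.74 ± 0.13, adjusted p = 1.52e-07), and Itgb5 from 111, 84.7 and 76.00 CPM to 195, 202 and 180.1 CPM (1.09 ± 0.21, adjusted p = 0.00181). The fibroblast markers summed to 511 to 662 CPM at day 0 and 850 to 1236 CPM at day 14. Of 9 tested 2 rose and 1 fell. Most of the sum was Postn, the matrix protein periostin, at 644, 496 and 519.6 CPM and 1212, 1198 and 829 CPM. Of 13 fibroblast markers 2 were at 0 in all 6 libraries and 7 stayed below 1 CPM. Their part in the matrix results was not tested. In bulk RNA, more cells of a type and more RNA per cell cannot be told apart.

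Markers of other cell types were mostly low. Endothelial and pericyte markers summed to 79.1 to 213.9 CPM at day 0 and 78.5 to 129.6 CPM at day 14, with the pericyte gene Rgs5 lower (-1.78 ± 0.31) and 10 of 12 members below 1 CPM. Nearly all of the sum was Notch3, at 211.2, 115.8 and 75.52 CPM at day 0 and 127, 76.22 and 88.15 CPM at day 14. Kdr, a receptor of endothelial cells, had 0 counts over day 0 and 8 over day 14. Schwann and neural markers summed to 33.4 to 41.0 CPM and 33.1 to 38.9 CPM, and among them Uchl1, a ubiquitin hydrolase, rose from 0.128, 0.0224 and 0.0436 CPM to 0.440, 0.782 and 0.667 CPM (3.21 ± 0.59, adjusted p = 0.00125). Adipocyte markers summed to 3.91 to 4.28 CPM and 3.78 to 5.09 CPM, with the adipogenic factor Pparg higher (1.17 ± 0.18) and the lipase Lpl lower (-1.05 ± 0.23). Lung epithelium markers summed to 6.66 to 7.73 CPM and 10.04 to 15.8 CPM, mostly Sftpd, a surfactant lectin (0.86 ± 0.22, adjusted p = 0.0157), whose call was lost without day 0 replicate 1 (adjusted p = 0.0625), day 0 replicate 3 (0.0599) or day 14 replicate 3 (0.108).

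The luminal progenitor markers summed to 25950 to 31020 CPM at day 0 and 24030 to 28490 CPM at day 14. Of 17 members 3 rose and 4 fell, and in a fit of the 6 libraries alone 1 rose. Ltf, lactoferrin (ENSMUSG00000032496, mm10 chromosome 9, 111019271 to 111042767), went from 6274, 5819 and 6546 CPM to 2350, 2837 and 2204 CPM (-1.33 ± 0.12, adjusted p = 1.62e-06), far below every day 0 library. Prom1 (-1.44 ± 0.13) and the ETS factor Ehf (-0.75 ± 0.14) fell, and Tspan8 rose from 56.3, 67.03 and 75.02 CPM to 105, 119.6 and 113 CPM (0.76 ± 0.15, adjusted p = 0.00234). Lcn2 rose from 4480, 5805 and 5659 CPM to 6672, 8850 and 8466 CPM. Its call was lost without day 0 replicate 1 or day 14 replicate 2 or 3 (adjusted p = 0.0655 to 0.0916). Aldh1a3 rose from 1011, 1018 and 1111 CPM to 1406, 1562 and 1301 CPM. In the 6 libraries alone neither Lcn2 nor Aldh1a3 was called. Elf5, the ETS factor of the alveolar lineage, was at 556, 618 and 688 CPM and 491, 536 and 504 CPM without overlap and was not called (-0.28 ± 0.13, adjusted p = 0.19). Among 16 genes of milk and secretion, 6 fell and 2 rose. The rises were 0 without day 0 replicate 1 and 1 without day 0 replicate 3 or day 14 replicate 2. Plin2 rose from 161, 179 and 198 CPM to 224, 277 and 269 CPM. Csn1s2b rose at a low level, from 0.555, 0.559 and 0.458 CPM to 0.857, 0.961 and 1.095 CPM. The casein Csn1s1 went from 292, 308 and 393 CPM to 81.1, 107 and 83.8 CPM (-1.87 ± 0.16, adjusted p = 6.87e-07), Pigr, which carries antibodies into milk, from 279.6, 261 and 235 CPM to 84.4, 86.1 and 72.5 CPM (-1.68 ± 0.15, adjusted p = 1.27e-06), and Xdh, a protein of the milk fat globule, changed by -0.91 ± 0.12. Csn3, at 2980 to 5670 CPM, was not called (-0.46 ± 0.18, adjusted p = 0.134). Of 15 hormone-sensing luminal markers 4 fell and 2 rose, or 1 without any 1 of the 6 libraries, and the pioneer factor Foxa1 was among the falls (-0.93 ± 0.20).

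More basal genes fell than rose. Of 20 basal and myoepithelial markers 8 fell and 2 rose (median -0.71), and with a GC offset 13 fell. Called or not, 15 of the changes were negative and 5 positive. The summed level was 7123 to 8560 CPM at day 0 and 8379 to 9843 CPM at day 14. That higher sum came from Igfbp5 (levels above), its largest member on both days. Krt14 was at 1753, 1612 and 1754 CPM at day 0 and 1073, 1092 and 1121 CPM at day 14. Krt5, Krt17 and Acta2 were also lower in every day 14 library. Acta2, smooth muscle actin (ENSMUSG00000035783, mm10 chromosome 19, 34241090 to 34255590), went from 226, 251 and 255 CPM to 93.4, 78.4 and 91.7 CPM (-1.47 ± 0.14, adjusted p = 2.79e-06). The contractile genes Cnn1 (-1.69 ± 0.23) and Myh11 (-1.89 ± 0.41) fell from low levels, and the basal transcription factor Snai2 went from 19.8, 21.5 and 23.2 CPM to 12.02, 7.46 and 8.71 CPM (-1.19 ± 0.17, adjusted p = 1.58e-04). Krt5, the keratin of basal cells, was at 1665, 1493 and 1708 CPM and 1033, 1022 and 969 CPM, without overlap, and missed the threshold (-0.69 ± 0.25, adjusted p = 0.0939), but was called lower in the 9 ATLD libraries alone (adjusted p = 0.00138). The rises were Igfbp5 (above) and Oxtr, the oxytocin receptor, from 115, 112 and 101 CPM to 167, 167 and 148 CPM (0.56 ± 0.10, adjusted p = 0.00131). Of 24 squamous genes 8 fell and 1 rose. Krt15 went from 22.6, 29.1 and 32.1 CPM to 7.23, 7.02 and 5.74 CPM (-2.07 ± 0.20, adjusted p = 1.89e-06), Krt6a changed by -1.51 ± 0.15, Calml3 by -1.56 ± 0.14 and Krtdap by -2.59 ± 0.35, while involucrin, Ivl, rose (1.22 ± 0.21). Of 6 keratins of simple epithelium 1 fell, Krt23 (-1.23 ± 0.12), or 2 in the ATLD libraries alone. Krt8, at 1570, 1706 and 1409 CPM and 925, 1147 and 1199 CPM without overlap, was not called (-0.52 ± 0.28, adjusted p = 0.306). It was called lower in 5 of 17 alternatives, among them the 9 ATLD libraries alone (adjusted p = 0.0392) and a GC offset (0.00689).

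Of 29 junction genes 2 rose and 2 fell, which at 13.8% is near the 11.7% of all genes, or 6 and 4 with a GC offset. The tight junction protein Cldn1 went from 254, 234 and 258 CPM to 149, 144 and 118 CPM (-0.86 ± 0.13, adjusted p = 2.76e-04), and N-cadherin, Cdh2, from 17.6, 12.97 and 11.3 CPM to 30.1, 22.9 and 21.6 CPM (0.84 ± 0.18, adjusted p = 0.00471). Of 15 regulators of epithelial-mesenchymal transition 5 rose and 2 fell. The rises included Zeb1 (2.47 ± 0.43), Snai1 (1.96 ± 0.42) and Zeb2 (1.64 ± 0.36), none of which passed 1.6 CPM in any of the 6 libraries. The falls were Snai2 and Hmga2 (-1.26 ± 0.22).

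All 4 calls among ERBB genes were of ligands. Of 14 ERBB receptors and ligands 3 rose, all ligands of Egfr: Areg went from 13.3, 13.7 and 14.1 CPM to 26.7, 30.2 and 32.9 CPM (1.13 ± 0.13, adjusted p = 1.43e-05), Hbegf from 16.8, 15.03 and 14.7 CPM to 28.4, 29.8 and 31.7 CPM (0.95 ± 0.10, adjusted p = 8.39e-06), and Ereg changed by 0.71 ± 0.18, a call lost without day 0 replicate 2 (adjusted p = 0.0731), day 0 replicate 3 (0.0545) or day 14 replicate 3 (0.0993). Nrg1, the ligand of ERBB3 and ERBB4, fell from 16.9, 13.6 and 13.3 CPM to 5.96, 4.40 and 4.74 CPM (-1.54 ± 0.14, adjusted p = 1.62e-06). Egfr was at 131, 97.1 and 88.8 CPM and 134, 106 and 88.99 CPM and was not called (0.06 ± 0.18, adjusted p = 0.908). Of 22 ERK feedback genes and targets 3 rose and 4 fell, with 1 rise when low counts were not filtered. Dusp6, an ERK phosphatase, went from 210.5, 184 and 197 CPM to 244, 247 and 276 CPM (0.37 ± 0.08, adjusted p = 0.0065), a call lost in the 6 libraries alone (adjusted p = 0.0556) and without the filter on low counts (0.0662), and Ier3 from 137, 144 and 141 CPM to 263, 354 and 357 CPM (1.21 ± 0.20, adjusted p = 5.03e-04), while Dusp1 fell from 33.3, 36.3 and 39.8 CPM to 16.4, 19.6 and 17.8 CPM (-1.02 ± 0.14, adjusted p = 1.01e-04). Of 22 AP-1 and immediate early genes 7 fell and none rose, or 4 without day 14 replicate 2, with Atf3 at -1.06 ± 0.14 and Nr4a1 at -1.13 ± 0.25.

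Of 17 NOTCH pathway genes 3 rose and none fell (17.6% called, against 11.7% of all genes), or 2 fell in the ATLD libraries alone. The rises were the targets Hey1, from 60.9, 59.7 and 58.6 CPM to 114, 125 and 147 CPM (1.10 ± 0.10, adjusted p = 1.46e-06), and Hey2 (1.09 ± 0.14), and the receptor Notch4 (1.21 ± 0.27). Of 26 WNT genes 5 fell and 3 rose, or 6 rises with a GC offset. Axin2, a direct target of WNT signalling, went from 9.44, 7.40 and 6.09 CPM to 2.15, 1.54 and 1.74 CPM (-2.08 ± 0.28, adjusted p = 7.83e-05). The ligand Wnt10a fell (-1.16 ± 0.27) and Wnt9a (1.70 ± 0.22) rose. Of 25 genes of TGF-beta, BMP and YAP signalling 8 rose and 5 fell. Ltbp2, which binds fibrillin, went from 169.9, 104 and 77.3 CPM to 458, 327 and 385 CPM (1.74 ± 0.28, adjusted p = 4.53e-04), the BMP target Id1 from 7.11, 5.70 and 4.76 CPM to 11.4, 15.7 and 19.00 CPM (1.39 ± 0.23, adjusted p = 5.08e-04), and the ligands Bmp7 (-1.43 ± 0.23) and Tgfb2 (-0.95 ± 0.12) fell while Bmp2 (1.19 ± 0.27) rose.

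Sterol genes fell. Of 24 genes of cholesterol synthesis and uptake 13 fell and none rose (median -0.44), or 8 without day 0 replicate 3 or day 14 replicate 2. With the replicate number as a block in the fit 5 fell. Hmgcs1, the synthase that commits acetyl units to the pathway (ENSMUSG00000093930, mm10 chromosome 13, 119690379 to 119708260), went from 308, 298 and 339 CPM to 243, 229 and 224 CPM (-0.44 ± 0.10, adjusted p = 0.00571). Lss, which closes the sterol rings, went from 91.8, 88.7 and 110.1 CPM to 55.9, 60.4 and 56.9 CPM (-0.75 ± 0.11, adjusted p = 1.51e-04), and Stard4, a sterol carrier, changed by -0.76 ± 0.13. The core of the sterol regulatory element, TCACNCCAC, stood in 1 of 16 of these genes with a promoter window (6.25%), against 1.38% of tested genes, and CCAAT in all 16. That gene was Hmgcs1, whose 150 bases before the start lie at chr13:119690201-119690350 of GRCm38.p6 on the plus strand and are given from RefSeq with the match in capitals.
Hmgcs1: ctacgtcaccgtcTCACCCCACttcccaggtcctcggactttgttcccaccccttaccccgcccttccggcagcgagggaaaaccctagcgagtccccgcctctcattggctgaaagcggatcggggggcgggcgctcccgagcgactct

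Of 23 genes of fatty acid synthesis and storage 6 fell and 1 rose, or 10 falls with a GC offset. Scd1, the stearoyl-CoA desaturase, went from 789, 748 and 784 CPM to 449.7, 502 and 436 CPM (-0.74 ± 0.10, adjusted p = 1.14e-04), and Elovl6 (-0.79 ± 0.15), Dgat2 (-1.14 ± 0.21) and Thrsp (-2.42 ± 0.34), a regulator of lipid synthesis, fell. Of 32 genes of glycolysis and hypoxia 5 rose and 2 fell, or 8 and 4 with a GC offset. Without the offset 21.9% were called, against 11.7% of all genes. Pfkp, a phosphofructokinase, went from 93.4, 90.6 and 115 CPM to 182, 218 and 175 CPM (0.94 ± 0.11, adjusted p = 1.71e-05), Adm, a vasodilator peptide induced by hypoxia, went from 0.278, 0.783 and 0.305 CPM to 1.34, 2.08 and 2.55 CPM (2.12 ± 0.34, adjusted p = 3.66e-04), Car9 rose (1.03 ± 0.15), and the hexokinase Hk2 (-0.89 ± 0.17) and the prolyl hydroxylase Egln3 (-0.89 ± 0.12) fell. Of 29 genes of the unfolded protein and integrated stress responses 3 fell (10.3%, near the 11.7% of all genes), or 6 fell and 2 rose with a GC offset. All 3 make serine or one-carbon units: Psat1 went from 220, 258 and 246 CPM to 102, 92.4 and 100.4 CPM (-1.30 ± 0.10, adjusted p = 1.89e-07), Phgdh from 32.8, 37.8 and 37.6 CPM to 12.4, 13.7 and 14.6 CPM (-1.41 ± 0.26, adjusted p = 0.00109), and Mthfd2 changed by -0.56 ± 0.12. Of 24 NRF2 targets 2 rose and 3 fell (20.8% called, against 11.7% of all genes), and without day 0 replicate 1 only 1 rose. Nqo1, a quinone reductase, went from 67.6, 85.9 and 74.7 CPM to 179, 177 and 205 CPM (1.30 ± 0.11, adjusted p = 5.87e-07), against Gsta4 from 22.7, 32.4 and 32.9 CPM to 10.2, 9.36 and 12.2 CPM (-1.47 ± 0.15, adjusted p = 4.18e-06). Of 24 lysosome and autophagy genes 5 rose and none fell (20.8% called), or 13 with a GC offset. The protease Ctsd went from 1144, 1083 and 1168 CPM to 1767, 1881 and 1673 CPM (0.65 ± 0.13, adjusted p = 0.00316). None of 38 ribosomal protein genes (median -0.02), 33 nuclear-encoded respiratory chain genes (median 0.05) or 9 mitochondrially encoded transcripts was called by edgeR or DESeq2. At an unadjusted p under 0.05 the counts were 0, 0 and 1, and a GC offset called 1 of the last higher.

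ATLD libraries of day 28 give the levels 14 days later, and since they share the day 0 libraries only levels are set beside each other. Mki67, at 153 to 446 CPM over day 0 and day 14, was at 89.6, 102 and 94.05 CPM at day 28, and Rrm2 at 32.9, 29.3 and 23.2 CPM, in both genes below every day 14 library. Spp1 was at 3603, 3790 and 3108 CPM and Nqo1 at 268, 275 and 247 CPM, above every day 14 library. Mmp9 was at 8.88, 13.8 and 11.46 CPM, between the libraries of day 0 and day 14, and C1qtnf3 at 6.80, 10.1 and 8.94 CPM, which overlaps day 0. Il6 was at 0.384, 0.611 and 0.210 CPM, and Isg15 at 142, 86.5 and 124 CPM, which lies above every day 0 library and overlaps day 14. Ltf, lower at day 14, was at 10920, 10150 and 12380 CPM at day 28, above day 0, and Csn3 at 12370, 11100 and 9278 CPM.

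**Figure D3:**
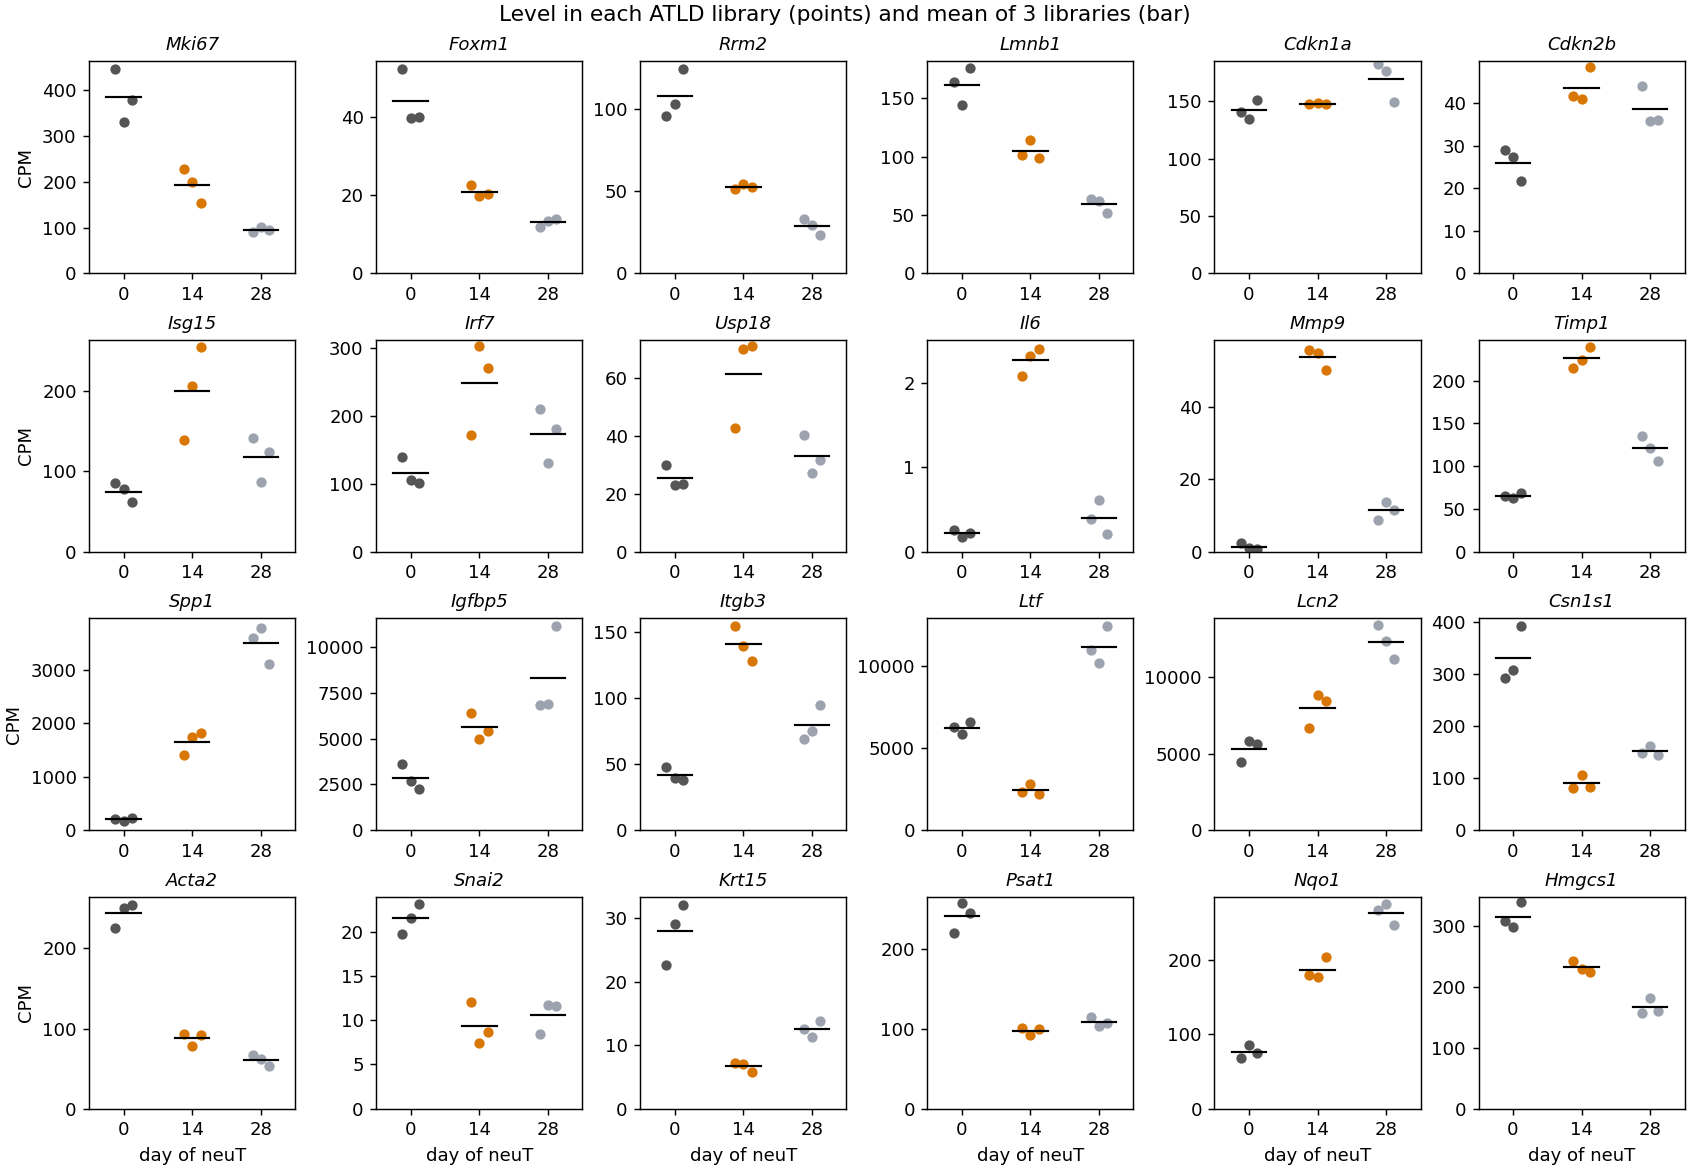
Level in CPM (y axes, each from 0) of 24 named genes in the 3 ATLD libraries of day 0, day 14 and day 28 of neuT (x axis). Points are libraries and bars the mean of 3. Mki67, Foxm1, Rrm2 and Lmnb1 step down over the 3 days, Mmp9, Il6 and Timp1 are highest at day 14, and Spp1, Igfbp5 and Nqo1 are highest at day 28.

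The change from day 0 to day 14 was then set against that of WT organoids in the same fit. The difference between the 2 changes was called for 3988 of 18684 genes (21.3%), 2011 with the ATLD change above the WT change and 1977 below it. Of the 2180 genes called in ATLD, 1384 differed from WT by this test. Per the labels, replicate 1 of WT was sequenced again alongside the ATLD libraries because of a batch effect, so among the original libraries genotype and sequencing batch cannot be told apart, and a batch effect cancels only where it is the same on both days. Slopes of level with GC content were taken against the mean of the 9 ATLD libraries, so that ATLD slopes lie around 0 by construction. Per 10% GC, the log2 slope was -0.75 and -0.73 in WT day 14 replicates 1 and 3 and -0.04 in replicate 2. It was -0.47, -0.28 and -0.25 in WT day 0 replicates 1, 2 and 3, and -0.17 to 0.01 in the 6 ATLD libraries. Of the 15 largest rises 10 differed from WT, and so did 11 of the 14 largest falls reported here. Mmp9, Chad, Acsf2, Spp1 and Mmp13 were not called different, with WT changes of 5.83 ± 0.46, 4.67 ± 0.31, 3.21 ± 0.18, 3.19 ± 0.15 and 2.07 ± 0.25. Acsf2 was called different in several alternatives. They included DESeq2 (adjusted p = 0.0273), edgeR with DESeq2 size factors (0.0418), no filter on low counts (0.0385) and a GC offset (0.0153). They also included the fits without ATLD day 0 replicate 3 (0.0348), ATLD day 14 replicate 1 (0.0273) or WT day 14 replicate 2 (0.00861). The difference of Mmp13 was called, among others, without ATLD day 0 replicate 3 (0.0144) and with a GC offset (0.0225). Cxcl14, Smoc1 and Dmp1 had negative WT changes of -4.91 ± 0.22, -3.41 ± 0.17 and -4.01 ± 0.36. Stra6, the largest fall, had a WT change of 6.44 ± 0.55, from 0.0622, 0.234 and 0.189 CPM to 9.65, 24.02 and 7.49 CPM, and differed by -10.71 ± 0.74, adjusted p = 8.02e-09.

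Cdkn1a differed between the genotypes: WT went from 60.5, 65.9 and 64.9 CPM to 165, 208 and 157 CPM, a change of 1.47 ± 0.11, and the difference was -1.41 ± 0.16, adjusted p = 2.63e-06. Mki67 changed by -0.23 ± 0.17 in WT, with a difference of -0.76 ± 0.24, adjusted p = 0.0322. That call was lost when any of 7 single libraries was left out (adjusted p = 0.0504 to 0.0907: ATLD day 0 replicates 1 and 3, day 14 replicates 2 and 3, WT day 0 replicates 2 and 3 and WT day 14 replicate 1). The difference was called below WT for 16 of 22 mitotic kinases and cyclins, 24 of 36 spindle genes and 14 of 26 kinetochore genes, against 21.3% called of all genes. Of the replication lists, 9 of 22 licensing genes and 5 of 30 fork genes differed, all below WT. So did 6 of 33 recombination genes, 1 of 21 Mre11 complex and checkpoint genes and 1 of 19 end joining genes. The shares of the fork list and of these last 3 lists lay below that of all genes. For Isg15 the difference was 0.85 ± 0.38, adjusted p = 0.14 and not called. Of the 47 interferon-stimulated genes 11 differed, 9 above WT and 2 below, a share near the 21.3% of all genes tested. The WT change was lower than the ATLD change for Csn3 (-8.33 ± 0.25 in WT, difference 7.87 ± 0.29, adjusted p = 5.08e-12), Elf5 (-4.32 ± 0.15 in WT, difference 4.04 ± 0.19, adjusted p = 6.54e-11) and Acta2 (-4.73 ± 0.17 in WT, difference 3.26 ± 0.21, adjusted p = 2.87e-09). Krt5 had a positive change in WT (1.55 ± 0.25, difference -2.23 ± 0.35, adjusted p = 1.40e-04). Il1a changed by 4.05 ± 0.38 in WT, with a difference of -4.75 ± 0.62, adjusted p = 1.65e-05. The squamous list differed for 15 of 24 genes, all below WT, and glycolysis and hypoxia for 22 of 32, 21 below.

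**Figure D4:**
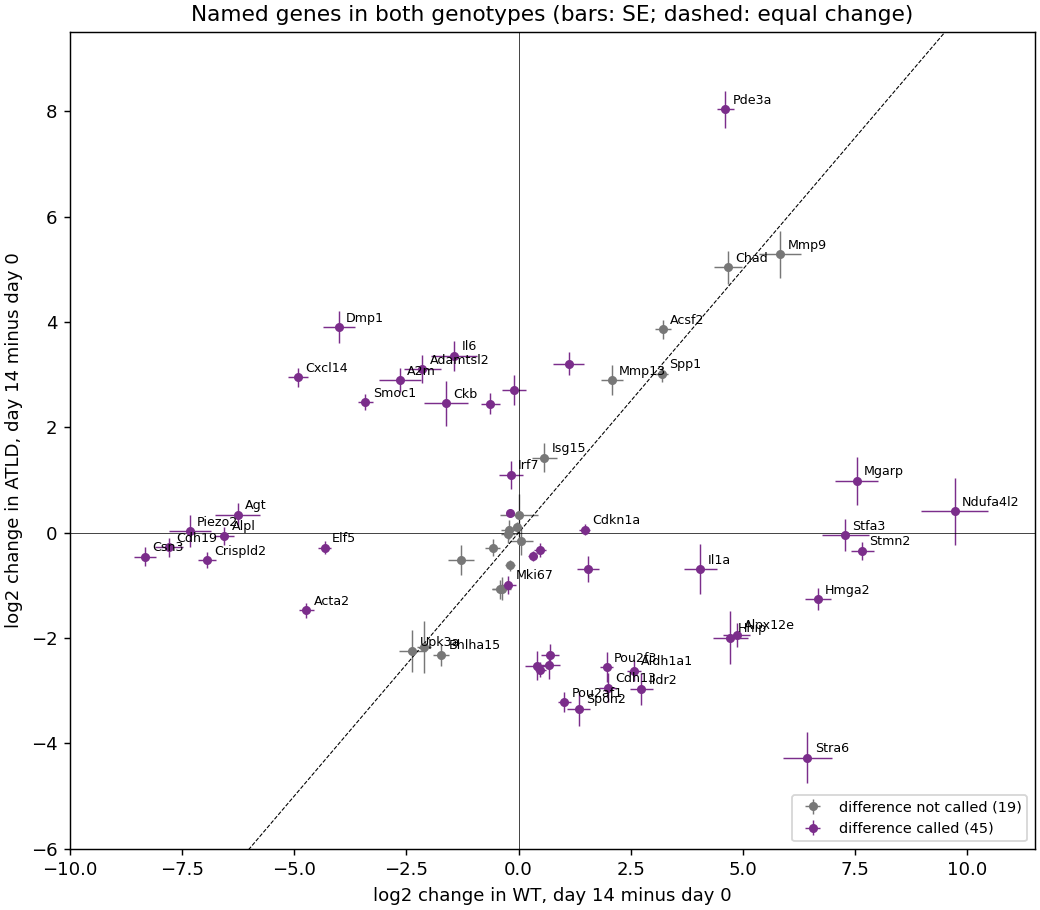
Log2 change from day 0 to day 14 in WT (x axis) and in ATLD (y axis) of 64 named genes, with SE bars. Purple points are the 45 whose difference was called and grey points the 19 others, and the dashed line marks equal change. Mmp9, Chad, Acsf2 and Spp1 lie near the line at the upper right, Dmp1 and Cxcl14 lie at the upper left, and Stra6 lies at the lower right.

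Of the 265 genes that the rule for named genes picks, 73 share exon sequence with another annotated gene, 62 of them with a gene on the opposite strand. The kit keeps the strand, but the strand setting used for counting is not given in the sources used here. Among the genes described, Mre11a shares exon sequence with Ankrd49, Cdc20 with Elovl1, Tk1 with Afmid, Il17rb with Actr8 and Irf7 with Phrf1 on the opposite strand, and Irf9 with Rnf31 and Ifi203 with Mndal on the same strand, so that some of their reads may come from the partner.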

How the data were processed

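Polyadenylated RNA was measured by sequencing in 21 libraries, and the 6 ATLD libraries of day 0 and day 14 are the ones compared. Per the labels' protocols, RNA was extracted with the miRNeasy kit and libraries were made with the TruSeq Stranded mRNA kit. The authors deposited raw counts per gene, made with featureCounts on mm10 per the submitters' processing notes, which also name DESeq2. The sources used here do not give the aligner, the versions, the annotation release or the strand setting.

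Of 55536 gene IDs, 18684 passed edgeR's filter (minimum count 10, minimum total 15). edgeR 4.0.16 in R 4.3.3 was run with TMM scaling and quasi-likelihood tests on the 18 original libraries in 6 groups, which share one estimate of the spread. The 3 resequenced WT runs were kept for an alternative. p-values were two-sided and adjusted by Benjamini and Hochberg, and SE is the absolute log2 change over the square root of F. The difference from WT is a contrast in the same fit. The procedure was tested on simulated data. Between the 3 libraries of a day, counts differed by more than sampling noise, so each library was counted once.

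The members and gene lists were chosen with earlier results of these data known. Named genes are a panel of 26, the 15 largest rises and falls at a mean log2 CPM of at least 1 without overlap of the groups, up to 5 called members of each list with any that went against the rest, and the 8 largest differences from WT each way. These are 265 genes, of which some are printed. Results of a few genes are not reported here. The promoter motifs were chosen after the values were seen. Alternatives were DESeq2 1.42.0, its size factors in edgeR, no filter, other sets of libraries, each replicate left out, a replicate block and an offset for GC content. A GC offset in the ATLD libraries alone, the joint omission of 2 WT libraries and a robust estimate of the spread were chosen after seeing the data.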

Additional observations from a re-analysis of the deposited data

Results flagged for a closer look

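Of 64 named genes tested for a difference between the ATLD and the WT change from day 0 to day 14, 45 passed edgeR's quasi-likelihood test. Most of them were picked for a large change or difference, so that this count is a description. Of the 24 panel genes, which were chosen with earlier results known, 12 passed, and 21.3% of all genes tested did. The values below are the ATLD minus the WT log2 change, so that a positive value is by itself no rise in ATLD. The ATLD changes of Agt (0.34), Alpl (-0.06), Piezo2 (0.03) and Cdh19 (-0.28), all above WT, were not called. Crispld2, also above WT, fell in ATLD (-0.52), a call lost in 6 of 17 alternatives. Below WT, the ATLD changes of Ndufa4l2 (0.40), Stmn2 (-0.34), Stfa3 (-0.05) and Mgarp (0.98) were not called. The ATLD change was above that of WT in 21 and below it in 24. The 16 genes with the largest differences were chosen for them.

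The genes above WT included Dmp1 (7.91), Alpl, the tissue alkaline phosphatase (6.50), Smoc1 (5.89) and Adamtsl2 (5.25), while the matrix protein Spon2 stood below (-4.68). A2m (5.54), Agt, the precursor of angiotensin (6.60), Crispld2 (6.43) and C1qtnf3 (2.09) were above WT too. Milk casein Csn3 (7.87), the alveolar factor Elf5 (4.04) and the contractile gene Acta2 (3.26) were above WT, and the basal keratin Krt5 below (-2.23). Of the cadherins, Cdh19 was above (7.51) and Cdh13 below (-4.93).

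Cxcl14 (7.86), Il6 (4.80) and the interferon factor Irf7 (1.27) were above WT, and Il1a (-4.75), Cxcl1 (-0.80) and the receptor Il17rb (-3.08) below. The call for Irf7 was lost when any of 6 libraries was left out (adjusted p = 0.051 to 0.0794: ATLD day 0 replicate 2 or 3, ATLD day 14 replicate 2 or 3, WT day 0 replicate 3 and WT day 14 replicate 1), and that for Cxcl1 without WT day 14 replicates 1 and 3 together (0.051). The mechanosensitive channel Piezo2 (7.35), creatine kinase Ckb (4.08), Pde3a (3.43), Olr1 (3.08), Megf10 (2.81) and the ERK phosphatase Dusp6 (0.55) were above WT as well.

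The differences furthest below WT were those of Stra6 (-10.71), Ndufa4l2, a mitochondrial gene induced by hypoxia (-9.31), Stmn2 (-8.00), the chromatin protein Hmga2 (-7.93), Stfa3 (-7.32), the lipoxygenase Alox12e (-6.80), the hedgehog-binding protein Hhip (-6.72) and Mgarp (-6.55). Ildr2 (-5.71), Aldh1a1 (-5.19), Pou2f3 (-4.52), Pou2af1 (-4.24), Phyhip (-3.20), Adh7 (-3.02) and Klk10 (-2.93) followed. Cdkn1a (-1.41), Hmgcs1 (-0.75) and Mki67 (-0.76) differed by smaller amounts.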

How the results depend on the processing

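An offset for GC content moved the counts most in ATLD: 3597 genes were called, 1709 higher and 1888 lower, against 2180, and 2156 of the 2180 were among them. The other settings gave 1490 to 2692 calls in ATLD and 3070 to 5672 differences from WT. Leaving out single libraries gave 1629 to 1901 calls in ATLD. With the replicate number as a replicate block there were 1490 calls, 1487 of them shared with the fit without it, and 5 sterol genes fell in place of 13. Deviations of same-numbered libraries from the means of day 0 and day 14 had correlations of 0.30, -0.08 and -0.05. Of 6 libraries 2 correlated best with their own number, replicate 1 of each day. With 3 libraries a day these values cannot settle whether the numbers pair the libraries.

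Of 4499 values of the 265 named genes under these alternatives, 4229 kept their direction and side of the threshold, 236 lost the call, 20 gained it and 14 changed sign. All that changed sign were uncalled both ways. With single libraries left out the ATLD changes of these genes ran over both sides of 0: Erbb2 (-0.28 to 0.023), Alpl (-0.16 to 0.013), Piezo2 (-0.18 to 0.51), Stfa3 (-0.50 to 0.27), Trp53 (-0.12 to 0.078), Egfr (-0.11 to 0.24) and Ndufa4l2 (-0.16 to 1.18). So did the differences from WT of Mmp9 (-0.91 to 0.11), Capn8 (-0.42 to 0.10), Upk3a (-0.078 to 0.61), Erbb2 (-0.40 to 0.16) and Cdkn2a (-0.023 to 1.26). With the resequenced WT replicate 1 Upk3a was at -0.12. Without WT day 14 replicates 1 and 3 together, Trp53 was at -0.14, Cdkn2a at -0.67, E2f1 at -0.15, Chad at -0.15 and Upk3a at -0.53. The cause was not tested.

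With 3 libraries a group, small changes of genes with few counts could not be resolved. Fitted folds of genes near 0 in a group depend on the prior count.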
